A study of Mus musculus and Rattus norvegicus with 37 samples.

Results

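Metallothioneins and zinc transporters were followed through the livers of 21 mice and 16 rats. The set holds 10 genes, namely Mt1, Mt2 (mouse), Mt2A (rat), the exporters Slc30a1, Slc30a3 and Slc30a10, and the importers Slc39a4, Slc39a5, Slc39a8 and Slc39a14. Each was found by its gene name, 9 in the mouse tables of 47929 uniquely named genes and 9 in the rat tables of 28026. The genes were chosen by the differences that Slc30a3, Slc39a5, Mt1 and Mt2A showed in these same comparisons, so differences between treatments or strains are given for them as a description, without a test. All mice were female. WT mice were C57BL/6J of 9 to 11 weeks, and mice labelled L-Sirt1 KO, which carry a liver-specific deletion of Sirt1, and their floxed littermates were 15 to 20 weeks old. LNA29, a mix of locked nucleic acid inhibitors against miR-29a and miR-29b/c at 20 mg/kg each, or saline was injected once under the skin, and livers were collected 7 days later. WT and floxed mice make up the joint WT/Floxed group, with 4 WT and 4 floxed mice given LNA29 and 3 WT and 2 floxed mice given saline, so age and background cannot be told apart there. The L-Sirt1 KO groups held 4 mice each. Male Zucker fatty rats (ZFR, obese through loss of the leptin receptor) and Zucker lean rats (ZLR) were compared at 5.5 months (n = 4 each), and ZFR of 3 months received BT2, an inhibitor of the kinase of branched-chain ketoacid dehydrogenase, at 20 mg/kg daily or DMSO vehicle for 7 days (n = 4 each).

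Values are normalized counts, that is, read counts per gene that the authors scaled within each table, so levels are set side by side across tables without a test. Estimated depth was 42.6 to 78 M reads in mice, where 1 read was worth 0.746 to 1.37 normalized counts. In rats it was 0.188 to 58.5 M reads, 12 of the 16 libraries lay under 5 M, and 1 read was worth 0.0322 to 10.5 normalized counts. Whole-gene Sirt1 values were 535 to 617 in the libraries labelled L-Sirt1 KO and 493 to 699 in WT/Floxed libraries, so the ranges overlapped and the label could not be checked from them, since a whole-gene value does not read the deleted part alone. The paper measured hepatic Sirt1 separately by RT-qPCR in both genotypes and treats the L-Sirt1 KO mice as lacking it.

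Metallothioneins are small cysteine-rich proteins that bind zinc and copper, and the zinc-sensing factor MTF1 switches on their genes through metal response elements. Slc30 (ZnT) proteins move zinc out of the cytosol, either across the plasma membrane or into vesicles, and Slc39 (ZIP) proteins move it in. In the liver, metallothionein genes also respond to glucocorticoids and to the acute phase. Several of the transporters carry other metals, such as manganese for Slc30a10 and Slc39a8, and iron for Slc39a14.

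Slc30a3, a vesicular zinc transporter best known from glutamatergic neurons, was the member with the largest difference in WT/Floxed mice (GRCm38 chr5:31086106-31108237, minus strand, protein coding). Its normalized counts in the 5 saline mice were 26.1, 32.8, 16.5, 27.2 and 31.99. With LNA29 the lowest of 8 values was 61.7, the median 113 and the highest 287, so the groups did not overlap. The log2 fold change was 2.27 ± 0.37 (SE, limma on log2 of the normalized count plus 1). Both backgrounds showed the difference. The 4 WT mice given LNA29 lay between 61.7 and 100 and the 4 floxed mice between 126 and 287, with log2 differences from saline of 1.76 ± 0.27 and 2.69 ± 0.33 (SE), and whether these responses differ was not tested. In libraries labelled L-Sirt1 KO, saline values were 107, 160, 36.6 and 99.1 and LNA29 values 119, 125, 184 and 95.7. These groups overlapped, with a log2 fold change of 0.51 ± 0.40 (SE) that was 0.10 without saline replicate 3.

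The 3 mature miRNAs that LNA29 targets share bases 2 to 8, the seed, shown in capitals because it sets which messages they pair with. The sequences are those of RefSeq (GRCm38.p6).
miR-29a-3p: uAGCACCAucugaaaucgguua
miR-29b-3p: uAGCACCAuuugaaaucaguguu
miR-29c-3p: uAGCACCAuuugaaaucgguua
The longest annotated 3′ UTR of Slc30a3, 664 bases, held 2 matches to the complement of the seed (TGGTGCT, in capitals, at bases 481 and 583 of the UTR, given in 30-base windows).
Slc30a3 first site: atgtgtgttcttTGGTGCTgtggcctgtgt
Slc30a3 second site: ccatccctgtgtTGGTGCTgtgtcctcagc
Slc30a10, whose values did not separate the groups, held 3 such matches in a 3′ UTR of 4207 bases, and Slc39a14 held 1 in 3197 bases.
Slc30a10 first site: ttgtctgtcttgTGGTGCTggggaattgca
Slc39a14 site: gtcctgtctcctTGGTGCTcggtttccacc
The other 6 members held none. Of the annotated transcripts with a 3′ UTR, 2 of 4 held a match in Slc30a3, 1 of 1 in Slc30a10 and 1 of 3 in Slc39a14. Among 13533 tested genes with an annotated 3′ UTR, 18.8% held at least 1 match in any transcript. A match of these letters is a description and not a shown binding site.

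Slc39a5, an importer of the basolateral membrane (GRCm38 chr10:128395931-128401229, minus strand, protein coding), had lower means with LNA29. In libraries labelled L-Sirt1 KO the saline values were 76.6, 161, 78.25 and 111 and the LNA29 values 24.8, 36.0, 51.7 and 27.6. These groups did not overlap, with a log2 fold change of -1.57 ± 0.31 (SE). In WT/Floxed mice the saline values were 115, 173, 113, 97.2 and 121, against a lowest of 47.9, a median of 81.8 and a highest of 127 with LNA29. These groups overlapped, with a log2 fold change of -0.66 ± 0.26 (SE). The 3 highest LNA29 values (127, 111 and 110.3) were from floxed mice. In WT mice alone the log2 difference was -0.95 ± 0.25 (SE, n = 4 and 3), and in floxed mice alone it was -0.45 ± 0.25 (SE, n = 4 and 2). Slc39a5 is also a gene of the pancreas, so pancreatic acinar markers were examined in the same libraries. In WT/Floxed mice their summed level was 955 ± 313 with LNA29 and 1438 ± 910 with saline (SD, n = 8 and 5), and the median log2 fold change of the 9 tested was -1.57, the same sign as that of Slc39a5, with 0 called. The saline sums were 831, 780, 1896, 2836 and 848, so 2 WT libraries, saline replicates 3 and 4, stood apart and the other 3 lay below the LNA29 mean. Slc39a5 in those 2 libraries was 113 and 97.2, the lowest of the 5 saline values. In L-Sirt1 KO libraries the sum was 680 ± 113 with LNA29 and 510.2 ± 95.6 with saline (SD, n = 4 each), the opposite sign to Slc39a5, and 0 of 2 tested were called. Their part in the Slc39a5 values was not tested.

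**Figure D1:**
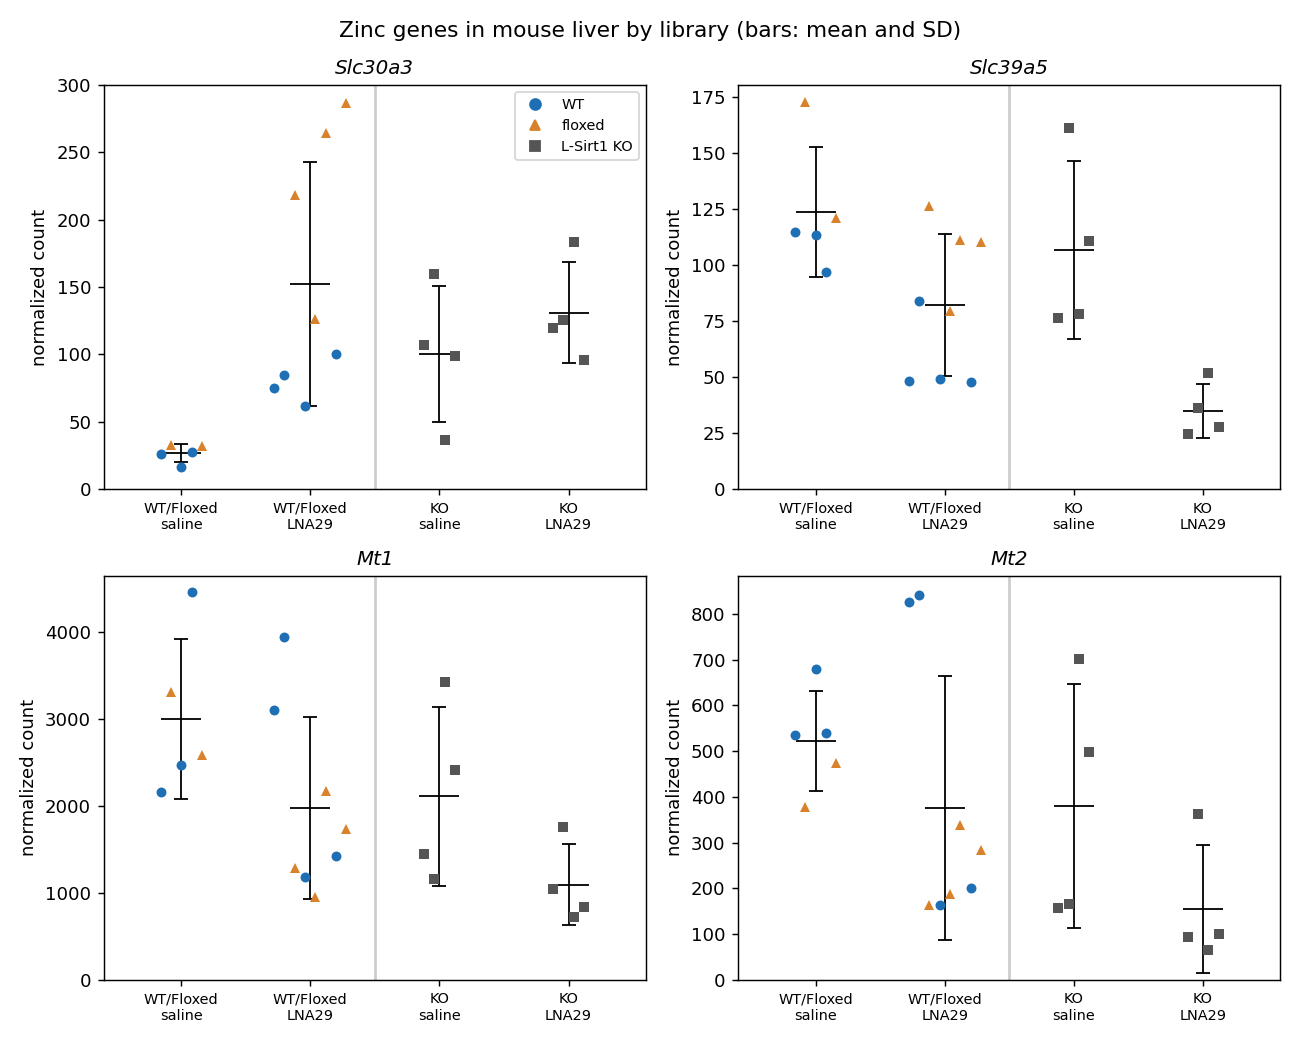
Normalized counts of Slc30a3, Slc39a5, Mt1 and Mt2 (y axis) in each mouse library by group (x axis), with circles for WT, triangles for floxed and squares for L-Sirt1 KO mice, and bars for the mean and SD. Slc30a3 separates LNA29 (61.7 to 287) from saline in WT/Floxed mice, and Slc39a5 separates them in L-Sirt1 KO mice.

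Mt1 and Mt2, the metallothionein genes of the liver, lie next to each other on chromosome 8 (GRCm38 chr8:94179082-94180327 and chr8:94172664-94173568, plus strand, protein coding). Mt1 in saline WT/Floxed mice was 2153, 3303, 2471, 4451 and 2581 normalized counts, and with LNA29 the lowest, median and highest were 949.8, 1575 and 3934. Mt2 was 535, 379, 680, 539 and 475 with saline, and 163, 243 and 842 at the lowest, median and highest with LNA29. Both genes overlapped between the groups. LNA29 replicates 1 and 2, both WT, were the highest with LNA29 in Mt1 (3100 and 3934) and in Mt2 (825 and 842). The same 2 libraries had the lowest summed levels of sinusoidal endothelial markers (10809 and 10600, others 11242 to 18548) and of oxidative stress genes (40518 and 39933, others 43754 to 56722) of the 8, and their part in the metallothionein values was not tested. In Mt1 a floxed mouse given LNA29 (2174) also lay above the lowest saline value. The log2 fold changes were -0.71 ± 0.31 for Mt1 and -0.76 ± 0.40 for Mt2 (SE). In WT mice alone they were -0.43 ± 0.44 and -0.57 ± 0.59, and in floxed mice alone (n = 4 and 2) -0.99 ± 0.30 and -0.86 ± 0.30 (SE). Whether the backgrounds differ in this was not tested. In libraries labelled L-Sirt1 KO, Mt1 was 1442, 1160, 3422 and 2406 with saline and 1038, 1761, 726 and 835 with LNA29. Mt2 was 157, 166, 702 and 497 with saline and 92.5, 362, 65.1 and 99.4 with LNA29. The groups overlapped for both genes, with log2 fold changes of -0.91 ± 0.36 and -1.34 ± 0.61 (SE). Runs, named by identifiers in the library names, differed in these values. Within the run HMLJ2BGX3 the log2 difference of Mt1 was -0.09 in WT/Floxed mice and -0.09 in L-Sirt1 KO mice, in HML3JBGX3 it was -0.88 and -0.68, and in HMYC7BGX3 it was -1.11 and -1.78. A run held 1 to 3 libraries of a group.

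Promoter windows of both genes are shown because they hold cores of the metal response element, TGCACNC and TGCGCNC. These were searched on both strands from 250 bases before to 30 after the RefSeq start (GRCm38.p6, plus strand, matches in capitals).
Mt2, chr8:94172368-94172647: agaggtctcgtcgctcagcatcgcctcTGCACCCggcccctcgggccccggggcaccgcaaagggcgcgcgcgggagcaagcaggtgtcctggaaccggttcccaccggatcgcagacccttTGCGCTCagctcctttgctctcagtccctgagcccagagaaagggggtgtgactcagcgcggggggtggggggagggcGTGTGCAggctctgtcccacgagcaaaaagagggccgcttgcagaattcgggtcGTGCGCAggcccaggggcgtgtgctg
Mt1, chr8:94178839-94179118: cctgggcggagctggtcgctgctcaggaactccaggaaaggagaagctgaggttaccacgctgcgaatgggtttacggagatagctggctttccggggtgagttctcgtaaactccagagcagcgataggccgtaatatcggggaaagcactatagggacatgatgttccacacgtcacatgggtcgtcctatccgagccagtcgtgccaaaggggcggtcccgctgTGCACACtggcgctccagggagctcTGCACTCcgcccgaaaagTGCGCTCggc
In these windows Mt2 held 4 matches and Mt1 held 3, and of 32851 mouse promoters of the same length 0.405% held at least 4 and 1.73% at least 3. The Mt2 window ends at 94172647, before the Mt2 gene start given above (94172664), so the annotations place the start differently. Bases downstream of the windows were not searched, so any cores there are not counted. Slc30a10 held 3, of which 2 overlap on opposite strands. Slc30a1, Slc30a3, Slc39a5 and Slc39a8 held 1 each, and 24.1% of all promoters held at least 1. A match is a description of the letters and not of binding.

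Among the other exporters, Slc30a1, the plasma membrane exporter and a known MTF1 target, was 1737 ± 278 with saline (SD, n = 5) and 2080 ± 355 with LNA29 (SD, n = 8) in WT/Floxed mice. In L-Sirt1 KO libraries it was 2461 ± 486 with saline and 1824 ± 448 with LNA29 (SD, n = 4 each). The log2 fold changes, 0.26 ± 0.13 and -0.45 ± 0.21 (SE), had opposite signs, and the groups overlapped in both. They were 0.15 without WT/Floxed saline replicate 4 and -0.25 without L-Sirt1 KO LNA29 replicate 4. Slc30a10 was 3750 ± 334 and 3581 ± 555 (SD, n = 5 and 8) in the WT/Floxed groups, and its log2 difference was -0.08 ± 0.11 (SE). Of the importers, Slc39a4, Slc39a8 and Slc39a14 had absolute log2 fold changes of 0.09 to 0.17 in both genotypes, with overlapping groups. Over fits that left out 1 library, Slc39a14 ran from -0.23 to -0.01 in WT/Floxed mice. In L-Sirt1 KO mice it ran from -0.32 to -0.07 and passed in 1 of 8 fits, from which nothing is read. Slc39a8 ran from 0.04 to 0.18 in L-Sirt1 KO mice, and Slc39a4 from 0.09 to 0.19 in WT/Floxed mice. In floxed mice alone (n = 4 and 2), Slc39a4 and Slc39a8 had log2 differences of 0.33 ± 0.10 and 0.24 ± 0.10 (SE). In WT mice alone these were -0.08 ± 0.13 and 0.14 ± 0.08 (SE). Slc39a14, which also takes up iron, was 8092 ± 1838 with saline and 7397 ± 755 with LNA29 in WT/Floxed mice (SD, n = 5 and 8).

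By the criteria for mice (p under 0.05, adjusted p under 0.2, mean above 50 and fold above 1.2), 1 of 9 members was called in WT/Floxed mice, Slc30a3, where 4.35% of 15811 tested genes were called, and 1 of 9 in L-Sirt1 KO mice, Slc39a5, where 1.87% of 15885 were. Slc39a5 was no longer called at an adjusted p limit of 0.05, nor without LNA29 replicate 2 (-1.60), LNA29 replicate 4 (-1.48) or saline replicate 4 (-1.53). Each call met the limit on the mean only through the group where the gene was high. Slc30a3 had means of 152 with LNA29 and 26.9 with saline in WT/Floxed mice. Slc39a5 had means of 35.0 with LNA29 and 107 with saline in L-Sirt1 KO mice. In each genotype 1 member did not overlap between groups, against 1.51% and 6.95% of all tested genes. Since the members were chosen on these comparisons, nothing is read from the counts or from which members were called. The median log2 fold change over the members was -0.08 in WT/Floxed and -0.16 in L-Sirt1 KO mice, and over all tested genes it was 0.00 in both. None of the 5 other tested Slc30 genes, the 9 other tested Slc39 genes or Mtf1 was called in either comparison. Slc39a1 in WT/Floxed mice had an adjusted p of 0.15 (limma, Benjamini-Hochberg), but its log2 fold change of 0.18 ± 0.06 (SE) was under the fold limit.

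**Figure D2:**
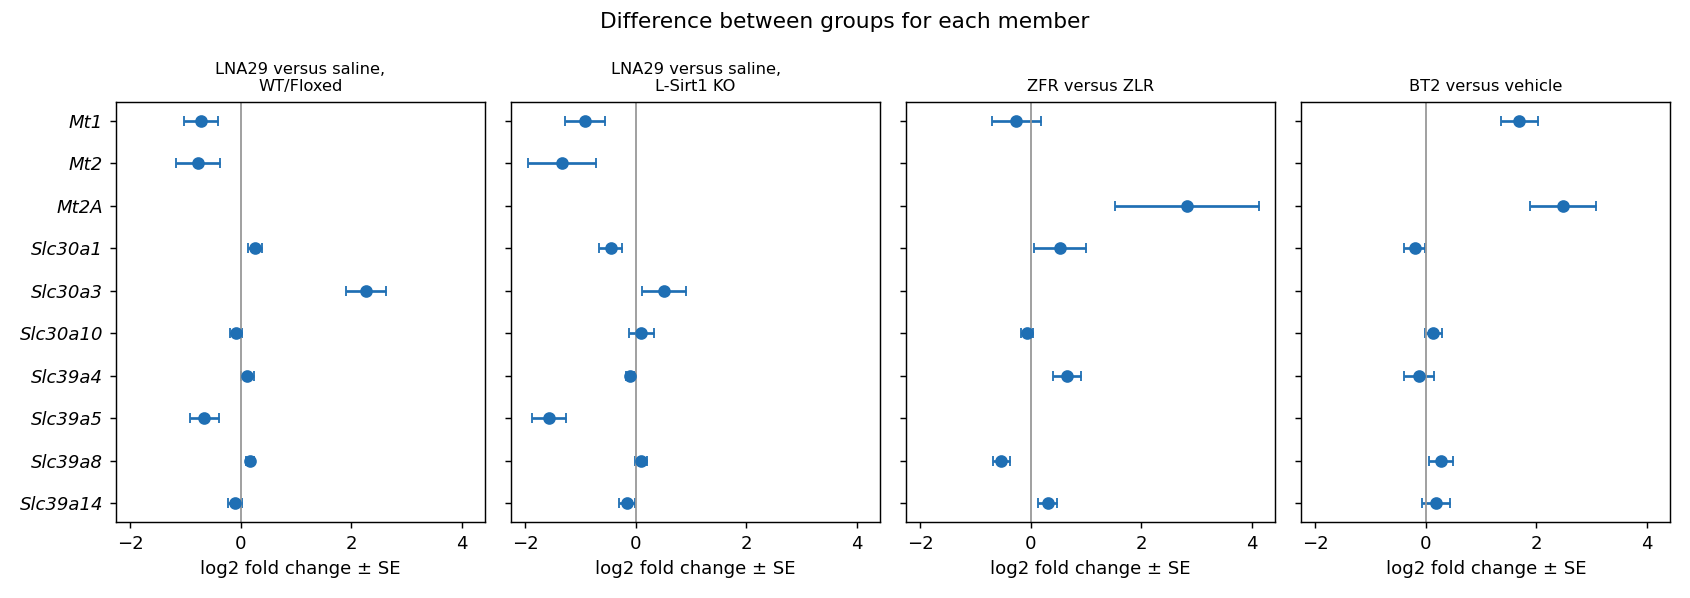
Log2 fold change with its SE (x axis) for each member tested (y axis) in the 4 comparisons, LNA29 over saline, ZFR over ZLR and BT2 over vehicle. Slc30a3 reaches 2.27 in WT/Floxed mice, Slc39a5 reaches -1.57 in L-Sirt1 KO mice, and Mt1 and Mt2A reach 1.69 and 2.48 with BT2. The Mt2A point between rat strains rests on 2 ZLR libraries at 0 and is no estimate of a fold.

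Other gene groups were counted in the same libraries, as genes called of genes tested. Of 8 stellate cell markers, 2 were called higher with LNA29 in each genotype and 0 lower, with medians of 0.17 and 0.23 on the log2 scale. Both were collagens, which are known miR-29 targets. Col3a1 and Col1a1 rose in WT/Floxed mice by log2 values of 1.19 ± 0.22 and 0.87 ± 0.25 (SE, adjusted p = 0.0162 and 0.123, limma) and in L-Sirt1 KO mice by 1.74 ± 0.20 and 1.71 ± 0.20 (adjusted p = 0.00783 for both). The stellate marker Lrat had -0.01 ± 0.15 and 0.11 ± 0.15, and Dcn had 0.09 ± 0.08 and -0.02 ± 0.09 (SE), in the order WT/Floxed, L-Sirt1 KO. Among acute-phase genes 4 of 15 were called lower in WT/Floxed mice and 0 higher, with a median of -0.07. Saa2 and Saa1 fell, with log2 fold changes of -1.48 ± 0.21 and -0.91 ± 0.21 (SE, adjusted p = 0.00237 and 0.0466, limma). The fibrinogen genes Fga and Fgg had 0.27 ± 0.10 and 0.25 ± 0.08 (SE) and were not called, and the summed level of the list was 1150900 with LNA29 and 1047960 with saline. Of 10 glucocorticoid-responsive genes 2 were called lower and 0 higher, with a median of 0.22. Lcn2 fell by 1.02 and the enzyme gene Tat by 0.48 (adjusted p = 0.00983 and 0.0993, limma), while Pck1 had 0.68 ± 0.45 and Fkbp5 0.23 ± 0.28 (SE) and were not called. In L-Sirt1 KO mice 0 of these 15 and 0 of these 10 genes were called, with medians of -0.10 and -0.19. In some of these genes 2 saline libraries stood apart from the other saline libraries. Saline replicate 3, the highest in Mt1 and Mt2, was the highest in the glucocorticoid-responsive genes Dusp1 (4012, others 723 to 1254), Per1 (1796, others 158 to 363) and Sgk1 (2685, others 642 to 1145). The whole glucocorticoid list did not set it apart, with a sum of 152995, against 147733 in saline replicate 4. LNA29 replicates 3 and 4 had higher sums, 233596 and 183759. Group means of the sum were 171484 with LNA29 and 129833 with saline. Saline replicate 4, the next in both metallothioneins, was the highest in Saa1 (6080, others 983 to 1255) and Lcn2 (2189, others 245 to 383). Of 8 sinusoidal endothelial markers 1 was called in each genotype, Lyve1, which fell by 0.51 and by 1.17 in the same order (adjusted p = 0.165 and 0.115, limma). The medians of this list were -0.12 and -0.04. Of 8 macrophage markers 0 were called in WT/Floxed mice (median -0.43), where LNA29 replicate 4 stood apart with a summed level of 44016, against 8431 to 22788 in the other 7 LNA29 libraries. In L-Sirt1 KO mice 2 were lower (median -0.34), Vsig4 and Clec4f, which fell by 0.54 and 0.29 (adjusted p = 0.0891 and 0.189, limma). Of 8 hepatocyte genes Apoa1 alone was called, higher by 0.51 in WT/Floxed mice (adjusted p = 0.0312, limma), and of 7 oxidative stress genes Srxn1 alone, higher by 0.47 in L-Sirt1 KO mice (adjusted p = 0.189, limma). In bulk liver, fewer cells of a type and less RNA per cell cannot be told apart. The part of these groups in the members' values was not tested.

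The WT and floxed mice differ in ways the choice of the members did not use, so that comparison was tested with treatment as a covariate (limma). Slc39a5 was higher in floxed mice, with a log2 difference of 0.73 ± 0.18 (SE, adjusted p = 0.0359), and was not called in LNA29 mice alone (0.91). By the same criteria 14.7% of 15811 genes were called. Slc30a3 had a log2 difference of 1.07 ± 0.24 (SE), given without a test, since its mean is above 50 only through the LNA29 mice on which it was chosen. Slc30a3 in LNA29 mice alone was 224 ± 71.2 in floxed and 80.3 ± 16.1 in WT mice (SD, n = 4 each). With saline it was 32.4 ± 0.555 (SD, n = 2) and 23.3 ± 5.89 (SD, n = 3). Mtf1 was higher in floxed mice by 0.31 ± 0.06 (SE, adjusted p = 0.0224) and Slc39a3 lower, at -0.26 ± 0.12 (adjusted p = 0.187). Mt1 and Mt2 had differences of -0.33 ± 0.30 and -0.63 ± 0.37 (SE) that did not pass. Without LNA29 replicate 2 these were -0.13 and -0.40. Mt2 was -0.87 without LNA29 replicate 4, and it passed in 1 of 13 fits that left out 1 library. Of 9 tested acinar genes, with a median of -3.46, 1 was called, Cela2a, lower in floxed mice at -1.26 ± 0.50 (SE, adjusted p = 0.132, limma). The summed level of the 11 listed genes was 816 ± 255 in floxed and 1420 ± 732 in WT mice (SD, n = 6 and 7). The WT mice include the 2 libraries that stood apart. Cela1 was the most abundant of them, and Cpb1 and Pnlip were at 0 in every floxed library. Their part in the Slc39a5 difference was not tested. Of 10 glucocorticoid-responsive genes 4 were called lower in floxed mice and 0 higher (median -0.34), with Pck1 (-1.08) and Klf9 (-0.41) the largest. Of 15 acute-phase genes 4 were higher and 1 lower (median 0.09), with Socs3 (0.87) the largest of the former and Stat3 (-0.45) the latter. Of 8 stellate markers 2 were lower, Col3a1 (-0.72) and Col1a1 (-0.55), with a median of -0.01. Of 8 hepatocyte genes Cps1 (-0.33) was lower and Ttr (0.28) higher, and of 11 copper genes the exporter gene Atp7a (-0.59) was lower. These are log2 differences with an adjusted p under 0.2 (limma), and their part in the members' values was not tested.

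Gene models that overlap a member matter because the strand setting of the counting was not given in the sources used here. The whole of Slc39a5 lies within Ankrd52 on the opposite strand (5299 bases), and Ankrd52 had log2 fold changes with LNA29 of 0.28 ± 0.24 in WT/Floxed and 0.28 ± 0.17 (SE) in L-Sirt1 KO mice. Slc30a3 overlaps Dnajc5g by 1953 bases and Gm9924 by 2311 bases on the opposite strand, and neither reached the minimum mean of 10 normalized counts. Mt2 overlaps Gm45774, an antisense gene, by 749 bases, and Gm45774 was not analysed here. Slc30a1 overlaps 1700034H15Rik by 761 bases and Slc30a10 overlaps Gm2061 by 721 bases, both on the opposite strand, and neither was called in either comparison. Slc39a8 overlaps 4933401H06Rik on the opposite strand by 6569 bases, which was under the minimum mean. It also overlaps Gm43428 by 3845 bases and Gm43429 on the same strand by 2251 bases. Gm43429 was lower with LNA29 in L-Sirt1 KO mice, at -1.20 ± 0.31 (SE, adjusted p = 0.186, limma). Metallothionein genes are close paralogs, so reads may be split between them. The part of these genes in the members' values was not tested.

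In rats the metallothionein means were higher with BT2 than with vehicle, while no gene passed the adjusted test. Mt1 was 294, 536, 193 and 155 normalized counts with vehicle and 929, 977, 616 and 930 with BT2, so every BT2 library lay above every vehicle library. The log2 fold change was 1.69 ± 0.33 (SE). Mt2A was 144, 305, 91.7 and 61.9 with vehicle and 1213, 1151, 197 and 897 with BT2. It overlapped through BT2 replicate 3, with a log2 fold change of 2.48 ± 0.60 (SE). Vehicle replicate 4, the lowest in both genes, rests on 15 reads of Mt1 and 6 of Mt2A. Without that library the log2 fold changes were 1.44 and 2.14. Within each of the 2 runs the log2 difference of Mt1 was 1.26 and 2.13 and that of Mt2A 2.49 and 2.46. Mt1m, a further metallothionein gene, was 28.5, 25.4, 10.7 and 21.8 with BT2 and 5.48, 8.95, 3.67 and 0 with vehicle. Its difference did not pass (adjusted p = 0.898, limma). It rested on 4 to 19 reads in the BT2 libraries. Vehicle replicate 4, at 0, holds 0.193 M reads, where 1 read was worth 10.3 normalized counts, so no fold is given. The other 5 tested members had absolute log2 fold changes of 0.12 to 0.27. Over fits that left out 1 library, Slc39a14 ran from -0.03 to 0.39 and Slc39a4 from -0.26 to 0.12, so both changed sign. Slc39a8 ran from 0.07 to 0.39, Slc30a10 from 0.02 to 0.19 and Slc30a1 from -0.30 to -0.12. No gene of 8405 passed an adjusted p under 0.05 by limma in this comparison (0%), 332 had an unadjusted p under 0.05, and 0 of 7 tested members were called. Groups did not overlap for 1 member and for 2.96% of all tested genes. Other groups in the same libraries had 0 genes called too. Over the 10 tested acute-phase genes the median log2 difference was 0.41, and their summed level was 97600 ± 13773 with BT2 and 73416 ± 8753 with vehicle (SD, n = 4 each). The 10 glucocorticoid-responsive genes had a median of 0.21 and the 6 oxidative stress genes 0.02. The glucocorticoid-responsive gene Fkbp5 was 113 ± 65.6 with BT2 and 47.4 ± 4.43 with vehicle, and the haem oxygenase gene Hmox1 was 223 ± 136 and 80.4 ± 51.0 (SD, n = 4 each, adjusted p = 0.898 for both, limma). Their part in the metallothionein values was not tested.

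**Figure D3:**
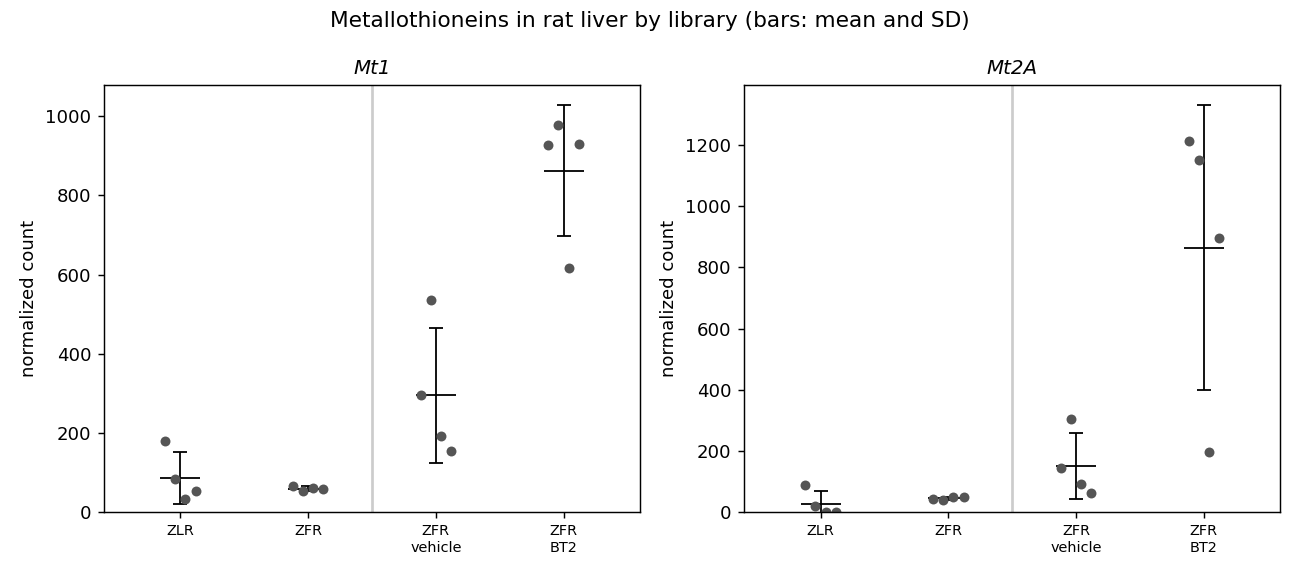
Normalized counts of Mt1 and Mt2A (y axis) in each rat library by group (x axis), with bars for the mean and SD. With BT2, Mt1 lies between 616 and 977, above all vehicle libraries, while 1 BT2 library falls among the vehicle libraries in Mt2A.

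Between ZFR and ZLR, Mt1 was 65.2, 51.8, 60.6 and 57.6 in ZFR and 179, 81.9, 31.6 and 52.2 in ZLR, with a log2 fold change of -0.26 ± 0.44 (SE) that was 0.19 without ZLR replicate 1. Mt2A was 41.9, 38.8, 48.0 and 48.2 in ZFR and 88.6, 17.5, 0 and 0 in ZLR. The libraries at 0 hold 0.188 and 0.189 M reads, where 1 read was worth 10.5 and 10.4 normalized counts, so their zeros allow up to 3 reads and no fold is given. Slc39a8, which also carries manganese, was 95.1, 81.2, 68.9 and 94.9 in ZFR and 135, 137, 116 and 104 in ZLR, and its log2 fold change was -0.53 ± 0.16 (SE). The values did not overlap, but ZLR replicates 3 and 4 rest on 11 and 10 reads, and the gap between the groups is less than 1 read is worth there. Slc39a4, the importer lost in acrodermatitis enteropathica, was 98.2 ± 11.5 in ZFR and 65.4 ± 28.8 in ZLR (SD, n = 4 each). Slc30a10 differed little, with 178 ± 8.65 and 186 ± 14.9 (SD, n = 4 each). Of 7 tested members 0 passed an adjusted p under 0.05, where 4.25% of 8633 genes did, and 1 of 7 did not overlap, against 14.5% of genes. Slc30a3 and Slc39a5 were below the minimum mean of 10 in both rat tables, and Slc30a3 was at 0 in 3 of 4 libraries of the BT2 and of the vehicle group. None of the other tested Slc30 and Slc39 genes was called.

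In the rat strains the same gene groups were counted. Of 10 acute-phase genes 4 were called higher and 2 lower in ZFR, with a median log2 fold change of -0.24. Orm1 and Stat3 rose by 2.12 ± 0.21 and 0.85 ± 0.11 (SE, adjusted p = 0.000568 and 0.00231, limma), and the fibrinogen genes Fga and Fgb fell by 0.60 and 0.53 (adjusted p = 0.0312 and 0.0306, limma). Of 10 glucocorticoid-responsive genes 1 was higher and 1 lower (median -0.07), as Lcn2 was called higher and Klf9 fell by 0.75 (adjusted p = 0.00123 and 0.0343, limma). Lcn2 was 118, 152, 146 and 296 normalized counts in ZFR and 2.07, 2.505, 0 and 10.4 in ZLR. The last 2 ZLR values are 0 and 1 read, so no fold is given. Of 8 stellate markers 3 were called higher and 0 lower (median 1.22), among them Col1a1 and Acta2 (adjusted p = 0.0223 and 0.00768, limma). Col1a1 was 26.6, 74.1, 37.6 and 76.2 in ZFR and 8.05, 5.74, 0 and 0 in ZLR, and Acta2 was 57.2, 58.8, 39.7 and 56.0 in ZFR and 7.85, 6.17, 21.1 and 10.4 in ZLR. ZLR replicates 3 and 4 are the libraries of 0.188 and 0.189 M reads and hold at most 2 reads of either gene, so no fold is given for these genes. The calls and the median rest in part on those 2 libraries. Of 7 endothelial markers Stab2 alone was called, higher by 1.16 ± 0.25 (SE, adjusted p = 0.033, limma), and the median was -0.07. Of 9 hepatocyte genes 1 was higher and 3 lower (median -0.22), with Tf higher by 0.44 ± 0.09 and Cps1 lower, as it fell by 0.58 (SE, adjusted p = 0.0192 and 0.0483, limma). Of 10 copper genes the copper carrier gene Cp alone was called and rose by 0.39 ± 0.08 (SE, adjusted p = 0.027, limma). Cela1, the acinar gene that was tested, fell by 2.18 (adjusted p = 0.0279, limma). Stab2 and Cela1 rest on 2 to 4 reads in ZLR replicates 3 and 4. Their part in the members' values was not tested.

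Within groups, centring each library on its group mean removed the contrasts that chose the members. Mt1 and Mt2 then varied together over 21 mice (Pearson r = 0.88, Spearman rho = 0.85, adjusted p = 0.00216 and 0.00504 over 36 pairs by permutation within groups, and r = 0.82 without the 2 libraries farthest from the median of Mt1). In 16 rats Mt1 and Mt2A did too (r = 0.89, rho = 0.91, adjusted p = 0.0063 and 0.0325 over 21 pairs by permutation, and r = 0.77 without 2 libraries). Without the 2 ZLR libraries at 0 for Mt2A, r was 0.89 over 14 rats (adjusted p = 0.0309 by permutation). Slc30a3 and Slc39a5 had r = 0.78 over the mice (adjusted p = 0.0155 by permutation). Nothing is read from this, because WT and floxed mice form separate clusters in that pair. With WT and floxed mice centred apart, r was 0.58 and did not pass (adjusted p = 0.143 by permutation), whereas Mt1 and Mt2 kept r = 0.88 (adjusted p = 0.0151 by permutation).

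**Figure D4:**
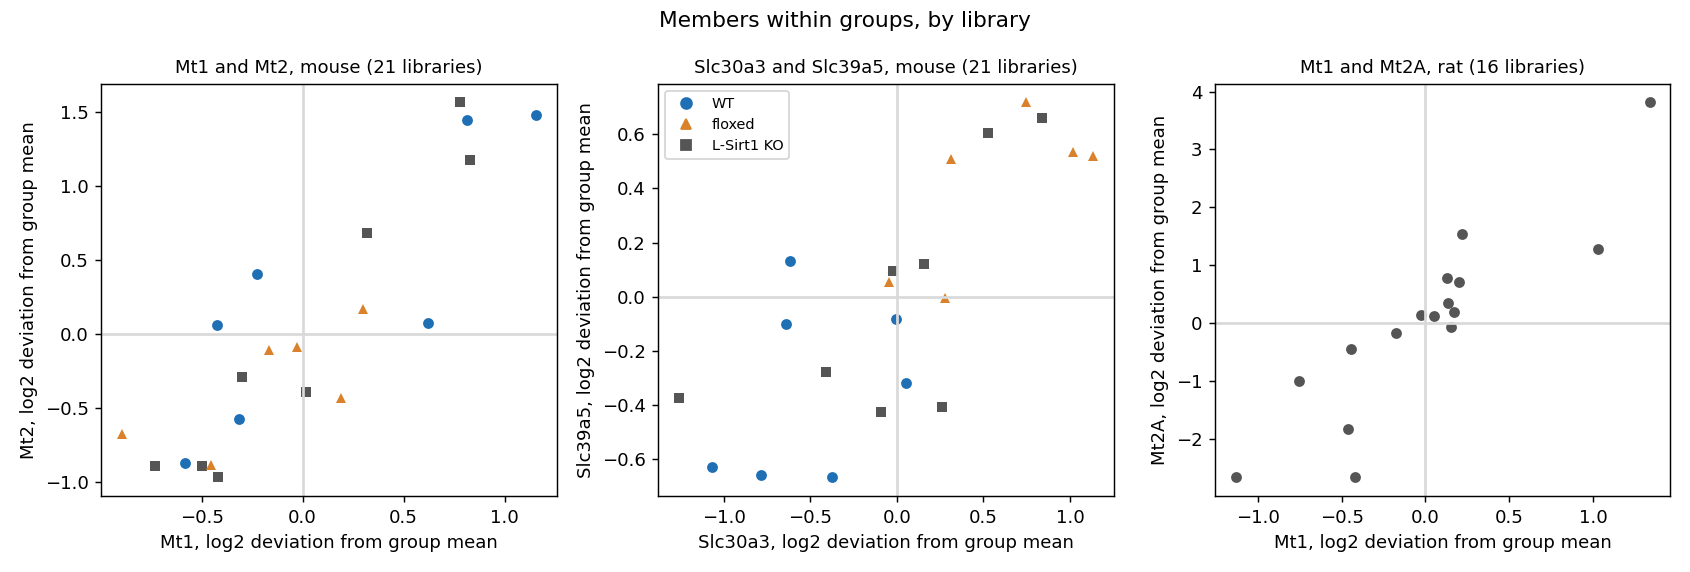
Log2 deviations from the group mean for pairs of members, each point 1 library, with circles for WT, triangles for floxed and squares for L-Sirt1 KO mice (rats are all circles). Mt1 and Mt2 (r = 0.88) vary together across backgrounds, while in Slc30a3 and Slc39a5 (r = 0.78) WT and floxed mice take opposite corners.

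The genes most like each member, by Pearson correlation of group-centred log2 values over 12759 mouse genes and 21 libraries, were Dmac2 and Gys2 after Mt2 for Mt1 (r = 0.83 and 0.83), and Dmac2 and Il1rn after Mt1 for Mt2 (0.84 and 0.83). For Slc30a3 they were Atp6ap2, Renbp and Wnk4 (0.91, 0.83 and 0.82), of which Atp6ap2 had 0.84 with background centred too, Renbp 0.64 and Wnk4 0.58. For Slc39a5 they were Proca1, Glo1 and Cd9 (0.83, 0.83 and 0.81, and 0.69, 0.73 and 0.68 with background centred too), for Slc30a1 Sertad2, Susd1 and Prkab1 (0.76, 0.75 and 0.74), and for Slc30a10 Lgalsl, L3mbtl2 and Npas2 (0.87, 0.87 and 0.86). In rats, over 3541 genes and 16 libraries, they were Acsl1 and Slc27a2 after Mt2A for Mt1 (0.86 and 0.83), Med16 and Pkp4 around Mt1 for Mt2A (0.93 and 0.88, and 0.71 and 0.81 without the 2 ZLR libraries at 0) and Tgoln2, Npc1 and Pitpnb for Slc30a10 (0.79, 0.78 and 0.77). These are descriptions and say nothing of shared control.

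The members differed in how much mice of the same group varied. In WT/Floxed mice the within-group SD of the log2 level was 0.62 for Mt1, 0.80 for Mt2 and 0.72 for Slc30a3, higher than in 95.1%, 98.1% and 97.1% of 12876 genes, against 0.12 for Slc39a8 (11.1%). These SDs include the difference between WT and floxed mice of a group. The ranks are over genes with a mean above 50, which Slc30a3 reaches in WT/Floxed mice only through the LNA29 group. In L-Sirt1 KO mice Mt2 had 1.09 (99.2%), Slc30a3 0.69 (97.0%) and Slc39a4 0.06 (2.25%). Per kilobase of exon, Mt1 was the most abundant member in saline WT/Floxed mice, at 2401 ± 737 normalized counts per kb (SD, n = 5), followed by Slc39a4 (1057 ± 62.0), Mt2 (887 ± 186), Slc39a14 (767 ± 174) and Slc30a10 (643 ± 57.2). No neighbours from Slc39a4 to Slc30a10 in this order differed beyond their spread (overlapping mean ± SD). Slc30a1 (331 ± 53.0) and Slc39a8 (289 ± 24.8) came next, within their spread of each other. Slc39a5 (55.7 ± 12.98) and Slc30a3 (9.49 ± 2.30) were lowest. With LNA29 Slc30a3 (53.7 ± 31.9, SD, n = 8) stood above Slc39a5 (36.9 ± 14.3), within their spread. Exon lengths count every annotated exon, so levels of genes with long rare transcripts are understated.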

How the data were processed

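RNA-seq of 37 livers (21 mice, 16 rats) was used. The authors deposited a signal, normalized counts per gene, from poly(A) RNA-seq reads that were aligned with STAR 2.5.3a to mm10 or rn6, quantified with Salmon 0.6.0 and divided by DESeq2 normalization factors within each of 4 tables. Whole reads could not be recovered (69.3% to 75.8% of low values in mice and 74.3% to 90.3% in rats were whole multiples of 1 read, within 0.01), so no count model was fitted. Depth was estimated from the most frequent value above 0. Unnamed and repeated entries were left out (381 and 130 in mice, 201 and 4523 in rats).

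Log2(normalized count + 1) was fitted with limma 3.58.1 in R 4.3.3 (lmFit, eBayes with a trend) for genes with a mean of at least 10, with Benjamini-Hochberg adjustment over all of them. The fits and correlations were tested on simulated data. Correlations used 100000 permutations within groups in Python 3.11.15 (numpy 2.4.6, scipy 1.17.1, pandas 2.3.3), and figures matplotlib 3.10.9. The members and lists were chosen with earlier results of these data known. Named are all members, other zinc genes called in a comparison, up to 2 called genes of each other list with the largest log2 fold change, the 3 genes most correlated with a member, and overlapping genes. Slc39a1, Mt1m, Lrat, Dcn, Fga, Fgb, Fgg, Fkbp5, Hmox1, Dusp1, Per1, Sgk1 and, with LNA29, Pck1 (and Saa1 and Lcn2 in L-Sirt1 KO mice) were named after their values were seen. The authors excluded 1 floxed saline mouse before deposit. Nothing states that samples of a group differ only biologically, so p-values measure the spread between these samples. Other settings tried were TMM scaling, a pseudocount of 10, tests without a minimum mean, sample quality weights, run, background and replicate number as covariates, an adjusted p limit of 0.05, precision weights for rats and each library left out.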

Additional observations from a re-analysis of the deposited data

Results flagged for a closer look

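In 72 sets of values, each 1 member in 1 group, 9 samples stood apart from the rest of their group by Dixon's criterion, which chance meets in about 1 in 20 groups. In mice, Mt2 in L-Sirt1 KO LNA29 replicate 2 was 362 normalized counts, with the nearest other at 99.4, and Slc39a14 in WT/Floxed LNA29 replicate 3 was lowest at 5836, with the nearest at 7062. In BT2 rats, Mt1 was lowest in replicate 3 at 616 (nearest 929) and Slc30a10 highest in replicate 1 at 256 (nearest 196). In ZFR, Slc30a10 was lowest in replicate 2 at 165 (nearest 182). Slc39a4 was highest in ZLR replicate 3 at 109 (nearest 51.4), a library of 0.188 M reads. The remaining values rest on few reads. Slc39a5 was at 0 in ZFR replicate 3 (nearest 7.06), and Slc30a3 was at 1.33 in BT2 replicate 2 and 0.224 in vehicle replicate 2, with the other libraries of both groups at 0.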

How the results depend on the processing

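The count of called genes moved more than the members did, and no member reversed its sign among called values. In WT/Floxed mice the 688 calls became 396 without a minimum mean, 1308 with sample quality weights, 206 at an adjusted p limit of 0.05, 88 in WT mice alone and 842 in floxed mice alone, and leaving out each library gave 381 to 1006. In L-Sirt1 KO mice the 297 became 160, 804 and 37 under the first 3 of these and 103 with run as a covariate, and leaving out each library gave 77 to 426. For ZFR against ZLR the 367 became 241 and 1169, and 579 with precision weights, and leaving out each library gave 225 to 379. With BT2 the 0 became 1 with a pseudocount of 10 and 1 with quality weights, and 0 to 2 when leaving out each library. For floxed against WT the 2331 became 766 at the limit of 0.05 and 173 in LNA29 mice alone, with 1409 to 2751 when leaving out each library, and Slc39a5 no longer passed in LNA29 mice alone (log2 difference 0.91). Pairs of members that passed in mice went from 2 to 4 with run removed and to 1 with background removed. The 2 were Mt1 with Mt2, and Slc30a3 with Slc39a5, from which nothing is read. Restricting the fits to WT, floxed or LNA29 mice, removing background from the correlations and leaving out the 2 ZLR libraries at 0 for Mt2A from those in rats were chosen after seeing the data. Slc30a3 in WT/Floxed mice kept a log2 fold change of 2.11 to 2.42 when leaving out each library, and Slc39a5 in L-Sirt1 KO mice kept -1.77 to -1.35 but was no longer called without LNA29 replicate 2 (-1.60), LNA29 replicate 4 (-1.48) or saline replicate 4 (-1.53). At the adjusted p limit of 0.05 Slc39a5 was not called in L-Sirt1 KO mice either. Of all values for single members and pairs under the alternatives, 719 kept their side of the threshold, 18 newly passed it and 7 no longer did. Among fits that left out 1 library, Mt1 (2 fits), Mt2 (1) and Slc39a5 (1) newly passed in WT/Floxed mice. Slc39a14 did so in L-Sirt1 KO mice, Slc39a4 between rat strains and Mt1 with BT2 (1 fit each). The members were chosen on these comparisons, so nothing is read from which of them passed or no longer passed. For floxed against WT, Mt2, Slc30a1 and Slc39a4 newly passed (1 fit each). The cause of these moves was not tested.

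With the replicate number as a block, the calls were 56 in WT/Floxed mice, 145 in L-Sirt1 KO mice and 221 between rat strains. Same-numbered samples did not all correlate above 0.1 in any comparison, so no pairing by number was used, but this does not exclude one. With BT2 the correlations were -0.04, 0.28, 0.13 and 0.12 for replicates 1, 2, 3 and 4. Replicates 2, 3 and 4 correlated most with the same number, and the runs also follow the number there. Leaving out rat libraries under 5 M reads was not run, since too few remain in a group. Rat values are limited by depth, as 6 libraries hold under 1 M reads.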
